A study of Mus musculus with 13 samples.

Results

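The fibrillar collagen genes examined here were 9 genes taken by name, those that encode the chains of collagen types I, II, III, V and XI: Col1a1, Col1a2, Col2a1, Col3a1, Col5a1, Col5a2, Col5a3, Col11a1 and Col11a2. The choice was by gene family, made with earlier results of these data known. Each of the 9 had a row among the 55642 genes of the count table, and 8 of them passed the filter on low counts that left 16848 genes for testing. Col2a1 did not pass and is given as counts only. RNA was sequenced from C2C12 cells, an established mouse myoblast line, after transfection with nontargeting siRNAs (siNT, control KD) or with siRNAs to YBX3 (siYBX3, YBX3 KD), so that every library came from transfected cells. Proliferating myoblasts (0 day) and cells given horse serum medium for 24 h to start differentiation (1 day) were both collected 48 h after transfection. At 0 day there were 4 control KD and 4 YBX3 KD libraries, replicates A to D. At 1 day there were 2 control KD libraries, C and D, and 3 YBX3 KD libraries, B to D. All 13 libraries are from 1 cell line, and the cultures are called biological replicates in the labels.

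A fibrillar collagen is made of chains that wind into a long triple helix and pack side by side into the striated fibrils that give tissue its tensile strength. Type I, built from the products of Col1a1 and Col1a2, is the bulk of most fibrils, type III from Col3a1 mixes with it in soft tissue, and types V and XI are minor chains that start fibril assembly and limit fibril width. Type II, from Col2a1, is the main collagen of cartilage. In muscle these proteins form the connective tissue around fibres, made mostly by fibroblasts, and cultured myoblasts also express them. YBX3 is a Y-box protein, with a cold shock domain that binds DNA and RNA, and it affects the stability and translation of mRNAs.

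Library totals ran from 33451547 to 71811371 estimated counts. Ybx3 itself lay between 28.69 and 71.51 CPM (the count scaled to a library total of 1e+06, after TMM scaling) in the 7 YBX3 KD libraries and between 264.5 and 346.6 CPM in the 6 control KD libraries, a mean of 14.5% of control. Of 10 myoblast markers 8 passed the filter, with Cdh15 at 99.6 to 163 CPM and Myf5 at 31.3 to 73.5 CPM, while Myod1 was low at 0.601 to 3.32 CPM and Pax7 and Msc had at most 9 counts in any library. Summed, these markers gave 611 to 736 CPM in control KD libraries and 678 to 887 CPM in YBX3 KD libraries. The 10 muscle differentiation markers summed to 35.3 to 122 CPM with overlapping groups, and Tnnt2 alone ran from 24.4 to 90.5 CPM. Of 7 tendon and fibroblast markers, 5 passed the filter and Thy1 and Tnmd had at most 2 counts. They summed to 705 to 992 CPM, mostly S100a4, which alone ran from 552 to 847 CPM. The 10 cartilage and bone markers summed to 130 to 185 CPM, mostly Runx2 and Sox9, while Acan, the core protein of cartilage, had at most 2 counts. The 10 endothelial, blood and epithelial markers summed to at most 3.84 CPM, and Adgre1 and Epcam were at 0 in every library.

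The family took 1.69% to 2.99% of all counts in a library. Per kilobase of the canonical transcript and averaged over the 13 libraries, the level of Col1a2 was highest at 2006 ± 405 CPM per kb (SD, n = 13). Col1a1 followed at 684 ± 151, Col3a1 at 527 ± 95.8, Col5a2 at 247 ± 50.7 and Col5a1 at 214 ± 41.9 CPM per kb. These 5 mRNAs were among the 32 most abundant of the cells by CPM. The mean levels of Col1a1 and Col3a1, of Col5a2 and Col5a1, and of Col11a1 and Col11a2 differed by less than the sum of their SDs. These SDs hold both treatments and leave out that the genes share libraries. Within libraries the ratio of Col5a1 to Col5a2 per kb was 0.724 to 0.979, so by this length Col5a1 was below Col5a2 in every library. The ratio of Col3a1 to Col1a1 was 0.535 to 1.01.

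Col5a3, the third type V chain, was far lower at 8.50 ± 2.08 CPM per kb. The type XI genes Col11a1 and Col11a2, whose chains can join type V molecules outside cartilage, stood at 4.16 ± 1.37 and 3.94 ± 1.89 CPM per kb. Col2a1 was close to absent, with 0 to 15 counts per library and a mean of 0.109 ± 0.0879 CPM. The library with 0 counts was control KD replicate D at 0 day, and the highest was YBX3 KD replicate A at 0 day. Dividing by the union of all exons instead of the canonical transcript brought Col1a2 to 850, Col1a1 to 617 and Col3a1 to 285 CPM per kb. It placed Col5a1 (207) above Col5a2 (167).

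**Figure D1:**
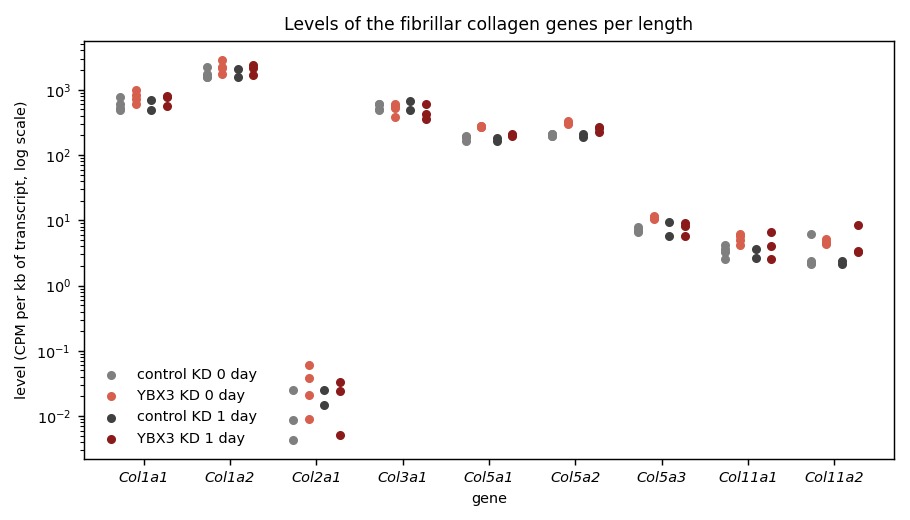
Level of each fibrillar collagen gene in CPM per kb of canonical transcript on a log axis, with 1 point for each library coloured by group. The library in which Col2a1 had 0 counts is left out. The type I, III and V genes other than Col5a3 lie above 100 CPM per kb, the type XI genes and Col5a3 lie near or below 10, and Col2a1 lies below 0.1.

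The proteins were alike in their helical part and differed at the amino end. Translation of the GENCODE vM39 coding sequences gave a longest unbroken run of 337 to 344 Gly-X-Y triplets in each of the 9 chains, the repeat that forms the triple helix. The stretch before that run was 96 residues in Col1a2 and 558 residues in Col5a1. Col11a1, Col5a3 and Col11a2 also had long stretches there, of 526, 477 and 400 residues. Col5a2, at 210 residues, was closer to Col1a1 (167), Col3a1 (163) and Col2a1 (200).

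The first question was which of these mRNAs differ between YBX3 KD and control KD over both days, with the day as a term of the fit. Col5a1 and Col5a2, the abundant type V chains, rose in YBX3 KD, by 1.34-fold and 1.42-fold. They were 2 of the 8 genes tested, called by edgeR's quasi-likelihood test at a Benjamini-Hochberg adjusted p under 0.05. Of all 16848 genes 2.34% were called, and 1.29% were called as higher. The study used stricter thresholds with DESeq2, a fold change over 1.3 with an adjusted p under 0.001. By DESeq2 Col5a1 and Col5a2 passed these as well (log2 fold changes of 0.41 and 0.50, DESeq2 adjusted p = 2.67e-06 and 1.68e-08), as did 1.06% of the genes that DESeq2 tested. On edgeR's adjusted p-values none of the family passed them, against 0.113% of all genes. The median log2 fold change over the 8 genes was 0.41, against 0.00 (8e-04) over all genes tested.

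Col5a2 (ENSMUSG00000026042, GRCm39 chromosome 1, 45412554 to 45542442, minus strand) encodes the partner chain of Col5a1 in the usual type V molecule. In control KD it stood at 1585, 1581, 1481 and 1490 CPM in replicates A to D at 0 day and at 1593 and 1445 CPM in C and D at 1 day. In YBX3 KD it stood at 2315, 2523, 2334 and 2253 CPM in A to D at 0 day and at 2025, 1944 and 1711 CPM in B to D at 1 day. Each of the 7 YBX3 KD libraries exceeded the highest of the 6 control KD libraries, a separation that 0.95% of all genes showed. The log2 fold change was 0.51 (standard error 0.07, a fold of 1.42, edgeR adjusted p = 0.00321).

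Col5a1 (ENSMUSG00000026837, GRCm39 chromosome 2, 27776397 to 27929526, plus strand) encodes the main type V chain. Its control KD values were 1590, 1650, 1623 and 1404 CPM in A to D at 0 day and 1521 and 1410 CPM in C and D at 1 day. Its YBX3 KD values were 2314, 2295, 2244 and 2322 CPM in A to D at 0 day and 1640, 1782 and 1688 CPM in B to D at 1 day. Only YBX3 KD replicate B at 1 day lay within the control range, just under the highest control library. The log2 fold change was 0.42 (standard error 0.07, a fold of 1.34, edgeR adjusted p = 0.00833). The 4 YBX3 KD libraries at 0 day had a coefficient of variation of 1.52%.

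The myoblast marker sum moved with these genes at 0 day, from 668 to 736 CPM in control KD to 793 to 887 CPM in YBX3 KD. Among its members Chrna1, a subunit of the muscle acetylcholine receptor, was called higher (log2 fold change 0.37 over both days, edgeR adjusted p = 0.0449). The part of this shift in the collagen result was not tested. In bulk RNA a different share of a cell type and a different amount of RNA per cell cannot be told apart.

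Col5a3 ran from 35.1 to 58.8 CPM in control KD and from 35.2 to 71.8 CPM in YBX3 KD. The groups overlapped because of the 1 day libraries, and the log2 fold change of 0.40 (standard error 0.15) did not pass the test (edgeR adjusted p = 0.207).

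**Figure D2:**
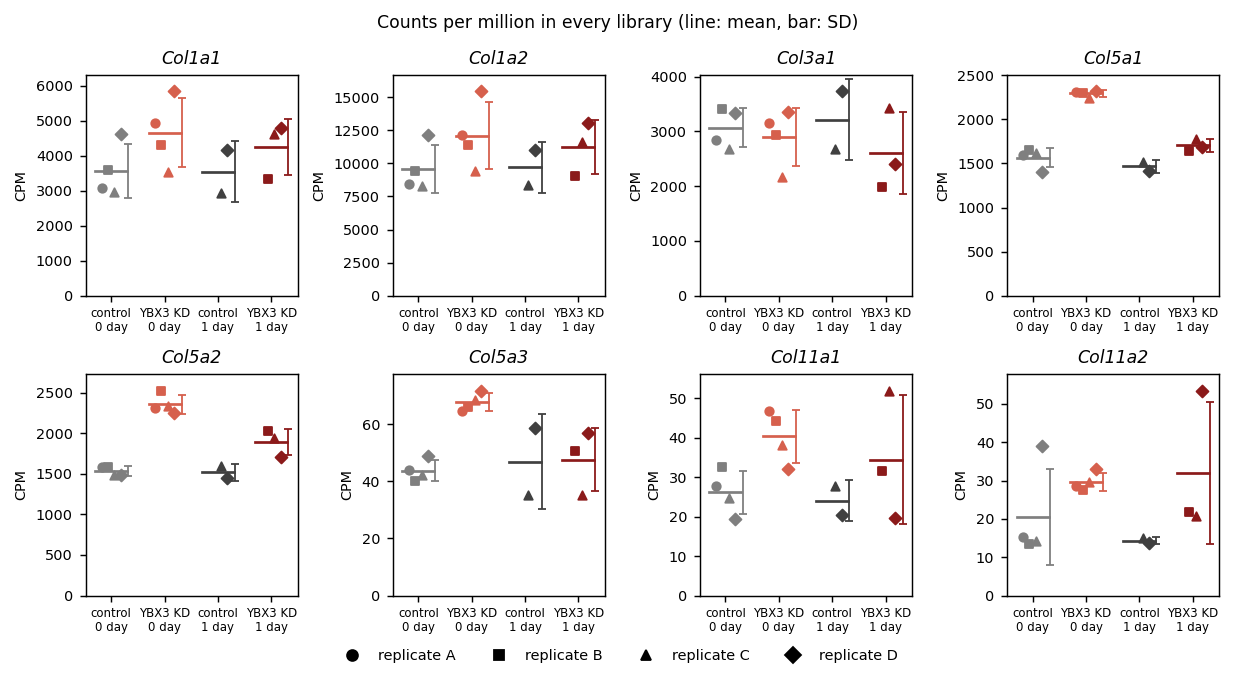
CPM of the 8 tested genes in each library, with marker shapes for replicates A to D, a line for the group mean and a bar for the SD. Col5a2 is above the control range in all 7 YBX3 KD libraries and Col5a1 in 6 of 7, while Col3a1 overlaps and Col11a2 has 1 high control library at 39.1 CPM.

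Col1a1 (ENSMUSG00000001506, GRCm39 chromosome 11, 94827050 to 94843868, plus strand) stood at 3088, 3586, 2951 and 4626 CPM in control KD A to D at 0 day, and at 2921 and 4161 CPM in C and D at 1 day. In YBX3 KD it stood at 4921, 4312, 3530 and 5847 CPM in A to D at 0 day, and at 3344, 4605 and 4801 CPM in B to D at 1 day. Replicate D was the highest library of each group. The groups overlapped, and the fitted change of 0.34 on the log2 scale (standard error 0.15) did not pass the test (edgeR adjusted p = 0.295).

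Col1a2 (ENSMUSG00000029661, GRCm39 chromosome 6, 4504814 to 4541555, plus strand) had the same order of libraries within each of the 4 groups. It ran from 8283 to 12150 CPM in control KD with a median of 8928, and from 9021 to 15480 CPM in YBX3 KD with a median of 11640. Its log2 fold change was 0.29 (standard error 0.14, edgeR adjusted p = 0.335). When libraries of the same letter and day were set side by side, Col1a1, Col1a2, Col5a1 and Col5a2 were each higher in YBX3 KD in 6 of 6 pairs, as was so for 9.35% of all genes. The log2 ratios within these pairs were 0.21 to 0.67 for Col1a1, 0.18 to 0.52 for Col1a2, 0.23 to 0.73 for Col5a1 and 0.24 to 0.67 for Col5a2.

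Col3a1 (ENSMUSG00000026043, GRCm39 chromosome 1, 45350698 to 45395840, plus strand) lies next to Col5a2 on chromosome 1 and is transcribed from the opposite strand. It was the only tested member with a negative log2 fold change, -0.17 (standard error 0.14, edgeR adjusted p = 0.631). Control KD values ran from 2681 to 3739 CPM and YBX3 KD values from 1980 to 3425 CPM. In 3 of 6 pairs of the same letter and day it was higher in YBX3 KD. The 3 YBX3 KD libraries below every control library were replicate C at 0 day (2161 CPM) and replicates B and D at 1 day (1980 and 2408 CPM).

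Col11a1 (ENSMUSG00000027966) had 19.4 to 32.5 CPM in control KD and 19.6 to 51.9 CPM in YBX3 KD, and the fitted difference of 0.58 on the log2 scale (standard error 0.20) did not pass (edgeR adjusted p = 0.163). Col11a2 (ENSMUSG00000024330) had the largest log2 fold change of the family, 0.77, with the largest standard error, 0.30 (edgeR adjusted p = 0.23). For Col11a2, 5 control KD libraries lay between 13.4 and 15.3 CPM and control KD replicate D at 0 day lay at 39.1 CPM. Its YBX3 KD libraries lay between 20.9 and 53.5 CPM, the highest being replicate D at 1 day. Without that control library the log2 fold change was 1.10 (edgeR adjusted p = 0.0148), in a fit that called 5.11% of all genes, against 2.34% with it. Without control KD replicate D at 1 day, which leaves 1 control library there, Col5a3 had a log2 fold change of 0.58. Col11a1 passed without YBX3 KD replicate D at 1 day (0.68, edgeR adjusted p = 0.0467), where 2.39% of all genes were called. These 3 libraries are all replicate D. Col11a1 and Col11a2 were each called in only 1 of the 13 fits that left out 1 library.

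Libraries that share a letter also deviated together from their group means across all genes. With the letter as a replicate block, 6 of the 8 genes were called, all higher, while 5.4% of all genes were called higher. Col5a1 and Col5a2 were among them (edgeR adjusted p = 0.00773 and 0.00396). The others were Col1a1 with a log2 fold change of 0.37 (edgeR adjusted p = 0.046), Col1a2 with 0.32 (edgeR adjusted p = 0.0402), Col11a1 with 0.54 (edgeR adjusted p = 0.045) and Col11a2 with 0.85 (edgeR adjusted p = 0.0365). Col5a3 (0.43, edgeR adjusted p = 0.063) and Col3a1 (-0.15, edgeR adjusted p = 0.542) were not called. With the 4 libraries of letter D left out, 6 genes were called higher against 5.8% of all genes. Those were Col1a1, Col5a1, Col5a2, Col5a3, Col11a1 and Col11a2. The values of Col5a1 and Col5a2 held their call in each of 13 fits that left out 1 library, with log2 fold changes of 0.38 to 0.47 and 0.47 to 0.55.

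**Figure D3:**
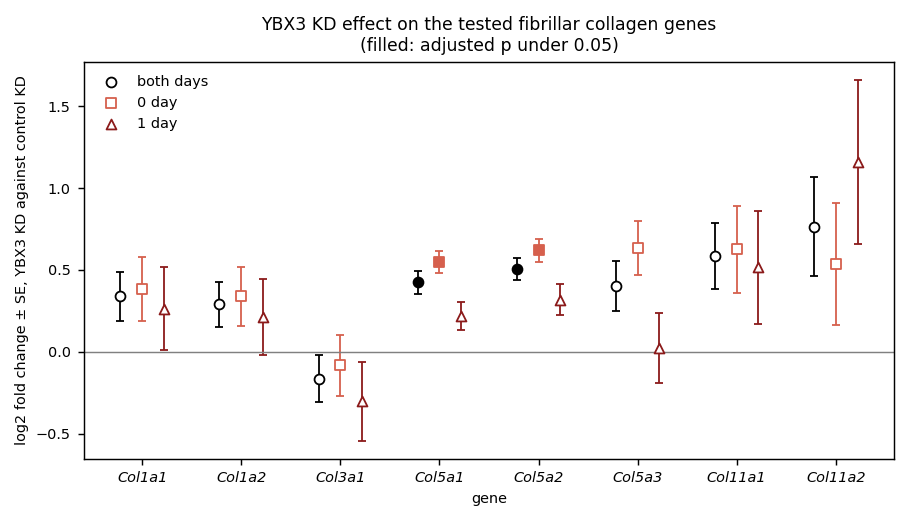
Fitted log2 fold change of YBX3 KD against control KD with its standard error for the 8 tested genes, over both days, at 0 day and at 1 day. Filled markers passed an adjusted p under 0.05, which Col5a1 and Col5a2 did over both days and at 0 day, and Col3a1 alone lies below 0 in all 3 comparisons.

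Sequences of the reagents and of the genes are shown because the measurements compare cells that received different siRNAs. The study lists 4 nontargeting siRNAs and 4 to mouse YBX3, and the sources used here do not say which were transfected for the sequencing. The listed strands of YBX3 siRNA 7 do not pair with each other, so it is left out here. Of the others, the antisense strands whose seed (bases 2 to 8, in capitals) had a match in a 3′ UTR of Col5a1, Col5a2 or Col3a1 were these.
nontargeting siRNA 4: uAGGAAAAcauguaaacca
YBX3 siRNA 8: aUACUUGCguggguuguuu

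The complement of the seed of nontargeting siRNA 4, TTTTCCT, occurred in the canonical 3′ UTR of 6 of the 8 tested genes, namely Col1a1, Col1a2, Col3a1, Col5a1, Col5a2 and Col11a1. It occurred in 31.4% of the 13117 tested genes with a 3′ UTR in GENCODE vM39. Col5a2, with a 3′ UTR of 2690 bases, held 4 such sites, and Col5a1, with 2498 bases, held 1. A long 3′ UTR has more room for any run of 7 letters. The complement of the seed of YBX3 siRNA 8, GCAAGTA, occurred in Col3a1 alone of the 8 and in 6.74% of all tested genes, and the seeds of YBX3 siRNAs 5 and 6 had no match in the family. The seed of nontargeting siRNA 2 had a match in Col1a1 and Col1a2, and in 24.5% of the tested genes. That of nontargeting siRNA 3 had a match in Col1a1, and in 29.1%. The sites in Col1a1, Col1a2 and Col11a1, which were not called over both days in the main fit, are not shown. Those in Col5a2, Col5a1 and Col3a1, with the match in capitals and their GRCm39 positions, were as follows.
Col5a2, chr1:45414563-45414591, minus strand: cagttagagttTTTTCCTcattcaaattt
Col5a2, chr1:45414377-45414405, minus strand: tcacagtctcaTTTTCCTgaagcatatca
Col5a2, chr1:45413902-45413930, minus strand: gtctcaagattTTTTCCTtaattgcagtt
Col5a2, chr1:45413295-45413323, minus strand: tatgttatgtaTTTTCCTcaattacattt
Col5a1, chr2:27927914-27927942, plus strand: gattgcttcctTTTTCCTtgttccttcct
Col3a1, chr1:45388816-45388844, plus strand: tgttgatctttTTTTCCTtccagtcatat
Col3a1, chr1:45388532-45388560, plus strand: ctggtgaacttGCAAGTAtctggaagggc

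Over all tested genes, the median log2 fold change over both days was 0.01 in those with the TTTTCCT match and -0.01 in those without. With the GCAAGTA match it was -0.06, and without it 0.00 (0.002). These matches describe the sequences, and whether any siRNA acted on a collagen mRNA was not tested.

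Y-box proteins are named after a promoter element that contains the letters CCAAT, read on either strand. RefSeq windows from 250 bases before to 50 bases after the start site (build GRCm38.p6) were at hand for 6 of the 9 genes, and Col1a1, Col2a1 and Col5a2 were not among them. CCAAT or its complement ATTGG occurred in 3 of the 6, Col1a2, Col5a3 and Col11a1, and in 37.4% of all 32851 windows. Col5a1, Col3a1 and Col11a2 had neither. The stretches are shown with the letters in capitals on the strand of the gene, and the first capital lay at position -109 in Col1a2, -122 in Col5a3 and -79 in Col11a1, counted from 1 at the start site. Col1a2 had a further ATTGG at position 1.
Col1a2, chr6:4505497-4505525, plus strand: aaaagaatggaaCCAATttaagaagcccc
Col5a3, chr9:20815173-20815201, minus strand: gatctcagccagCCAATcagcgcgtggtg
Col11a1, chr3:114030449-114030477, plus strand: gggaggcctgtgATTGGgtatgaccttca

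Within 0 day, proliferating myoblasts, Col5a1 and Col5a2 were also the 2 called genes of 8, against 0.427% of all genes. These libraries are part of the comparison over both days. By DESeq2 with the study's thresholds the same pair passed (DESeq2 adjusted p = 3.43e-12 and 1.46e-11), against 0.632% of genes, while on edgeR's adjusted p-values 0 of 8 passed them, against 0.0297%. In YBX3 KD Col5a2 averaged 2356 ± 116 CPM, against 1534 ± 56.1 CPM for control KD (SD, n = 4 each), and the log2 fold change was 0.62 (standard error 0.07, edgeR adjusted p = 0.00399). For Col5a1 the averages were 2294 ± 34.9 CPM against 1567 ± 111 CPM (SD, n = 4 each), and the fitted change was 0.55 on the log2 scale (standard error 0.07, edgeR adjusted p = 0.00399).

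The low type V gene Col5a3 had 43.9, 40.2, 42.1 and 48.7 CPM in control KD A to D at 0 day and 64.8, 66.2, 68.7 and 71.8 CPM in YBX3 KD A to D. For each of the 3 type V genes, and for no other tested member, the lowest of the 4 YBX3 KD libraries exceeded the highest of the 4 control KD libraries, as was so for 4.83% of all genes. Col11a1 missed this narrowly, with its lowest YBX3 KD library at 31.95 CPM and its highest control KD library at 32.52 CPM. Col11a2 had 27.4 to 33.0 CPM in YBX3 KD and missed it through control KD replicate D at 39.1 CPM, the next highest control KD library being at 15.3 CPM. The log2 fold change of Col5a3 was 0.63 (standard error 0.17, edgeR adjusted p = 0.145). It passed by DESeq2 (DESeq2 adjusted p = 0.0225) and in a fit of the 0 day libraries alone (edgeR adjusted p = 0.0219). With the letter as a replicate block Col5a3 joined Col5a1 and Col5a2 (0.64, edgeR adjusted p = 0.0307), where 1.37% of all genes were called higher.

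After 1 day in differentiation medium, 0 of 8 genes were called by edgeR, against 0.0712% of all genes. At an unadjusted p under 0.05 there were 3, Col5a1, Col5a2 and Col11a2, and DESeq2 also called 0. By unadjusted p these 3 ranked 810, 205 and 1085 of 16848 genes. At least 1085 genes were thus under 0.05, and the share of 0.0712% does not apply to that count. The log2 fold changes were 0.22 for Col5a1 (standard error 0.09, edgeR adjusted p = 0.593), 0.32 for Col5a2 (standard error 0.09, edgeR adjusted p = 0.474) and 0.02 for Col5a3 (standard error 0.22, edgeR adjusted p = 0.985). For Col5a1, Col5a2 and Col11a2 the lowest of the 3 YBX3 KD libraries exceeded both control libraries, a pattern that 10.5% of all genes showed. Col5a3 had 35.1 and 58.8 CPM in the control libraries and 50.8, 35.2 and 56.9 CPM in the YBX3 KD libraries. With 2 control libraries this comparison had the widest errors of the 3.

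The difference of the YBX3 KD effect between the days was tested as an interaction. It was called for 0 of the 8 genes by edgeR, where 0% of all genes were called, and for 0 of them by DESeq2. At an unadjusted p under 0.05 there were 3, the type V genes. Col5a1, Col5a2 and Col5a3 ranked 67, 213 and 392 of 16848 genes by that p, so at least 392 genes were under 0.05. The effect was smaller at 1 day by 0.33 on the log2 scale for Col5a1 (standard error 0.11, unadjusted p = 0.0105), by 0.30 for Col5a2 (standard error 0.12, unadjusted p = 0.0257) and by 0.61 for Col5a3 (standard error 0.27, unadjusted p = 0.0439). None passed the adjustment (edgeR adjusted p = 1 for each).

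Differentiation medium was the second factor. From 0 day to 1 day in control KD, 0 of 8 genes were called by edgeR (0% of all genes), 0 had an unadjusted p under 0.05 and DESeq2 called 0. At 1 day control KD averaged 1465 ± 78.7 CPM for Col5a1 and 1519 ± 104 CPM for Col5a2 (SD, n = 2 each), log2 differences of -0.10 and -0.01 from 0 day. Col5a3 differed by 0.10 on the log2 scale.

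In YBX3 KD, which shares no library with that step, 0 of 8 genes were called by edgeR (0% of all genes). The 3 with an unadjusted p under 0.05 were the type V genes, and at least 196 of all 16848 genes had such a p. The YBX3 KD libraries of this step also enter the comparisons within each day and the interaction, so it is no separate finding. Col5a1 was at 2244 to 2322 CPM at 0 day and 1640 to 1782 CPM at 1 day, with no overlap, a log2 difference of -0.43 (standard error 0.07). Its unadjusted p of 8.67e-05 ranked 1 of 16848 genes, yet the edgeR adjusted p was 0.988, and DESeq2 called it (DESeq2 adjusted p = 0.000119). Col5a2 was at 2253 to 2523 CPM and then 1711 to 2025 CPM, a log2 difference of -0.32 (standard error 0.08, unadjusted p = 0.00184, edgeR adjusted p = 0.988). Col5a3 was at 64.8 to 71.8 CPM and then 35.2 to 56.9 CPM, a log2 difference of -0.51 (standard error 0.18, unadjusted p = 0.0163, edgeR adjusted p = 0.988). With DESeq2 and the letter as a replicate block Col5a1 and Col5a2 were called in this step (DESeq2 adjusted p = 2.1e-05 and 0.00122).

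Ratios between chains put the members on a common scale within a library and are given without a test. They use the canonical transcript length, and their level depends on that choice, as the values for the union of exons above show. The ratio of Col1a1 to Col1a2 per kb, the chains that combine in type I, stayed between 0.317 and 0.366 in the 13 libraries. The ratio of Col5a1 to Col5a2 ran from 0.724 to 0.979. Set against the bulk chain, Col5a2 to Col1a1 ran from 0.253 to 0.428 in control KD and from 0.280 to 0.519 in YBX3 KD, with wide overlap. The ratio of Col3a1 to Col1a1 was 0.933 ± 0.112 (SD, n = 4) in control KD and 0.668 ± 0.0475 (SD, n = 4) in YBX3 KD at 0 day. At 1 day it was 0.969 ± 0.0162 (SD, n = 2) and 0.653 ± 0.131 (SD, n = 3). The ranges overlapped at their ends, 0.767 to 1.01 in control KD and 0.535 to 0.793 in YBX3 KD. The library at the low end of the control range was replicate D at 0 day, and that at the high end of the YBX3 KD range was replicate C at 1 day. As a share of the family's counts, Col3a1 made up 14.4% to 17.3% in control KD at 0 day and 10.9% to 12.6% in YBX3 KD at 0 day.

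**Figure D4:**
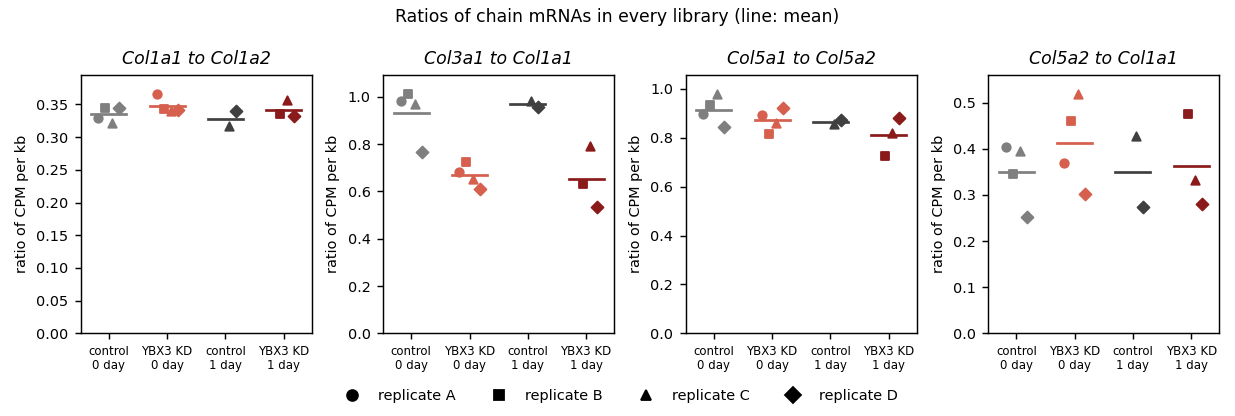
Ratio of the CPM per kb of chain mRNAs in each library, with a line for the group mean and marker shapes for replicates A to D. The Col1a1 to Col1a2 ratio is nearly level across groups, while the Col3a1 to Col1a1 ratio is lower in most YBX3 KD libraries than in control KD libraries.

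Across the 13 libraries, which share the knockdown and the replicate letters as sources of variation, Pearson's r of log2(CPM + 0.5) was 0.99 between Col1a1 and Col1a2 and 0.93 between Col5a1 and Col5a2. Between the chains of types I and V other than Col5a3 it was 0.38 to 0.44. Col5a3 had an r of 0.65 with Col5a1 and 0.625 with Col5a2. Col11a1 had an r of 0.72 with Col5a1 and 0.76 with Col5a2, but 0.08 with Col5a3 and 0.14 and 0.05 with Col1a1 and Col1a2. Col11a2 had an r of 0.69 with Col1a1, 0.71 with Col1a2 and 0.40 to 0.57 with the type V genes, while Col11a1 and Col11a2 had an r of -0.05 with each other. Col3a1 had an r of -0.11 with Col5a1 and -0.25 with its chromosomal neighbour Col5a2.

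**Figure D5:**
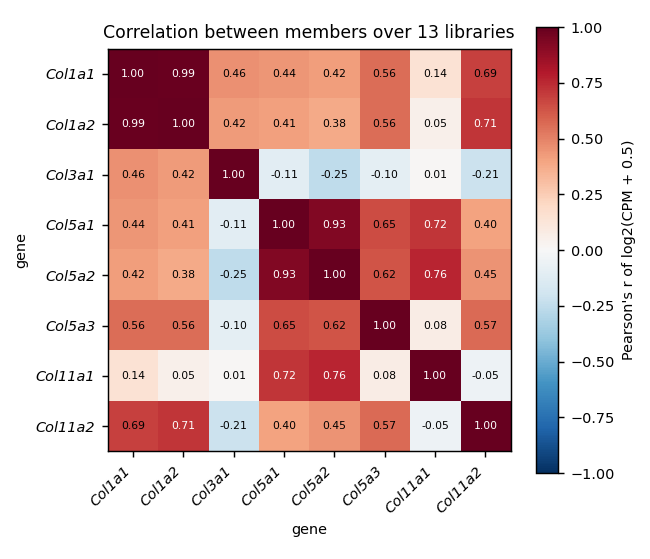
Pearson's r of log2(CPM + 0.5) over 13 libraries for each pair of the 8 tested genes, written in each cell and coloured from -1 to 1. The pairs Col1a1 with Col1a2 and Col5a1 with Col5a2 have the highest values, 0.99 and 0.93.

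Among the 16840 other tested genes, those whose pattern over the 13 libraries was most like that of Col5a2 were Col10a1 (r = 0.97), a collagen of hypertrophic cartilage at 0.834 CPM, Thbs1 (0.96), which encodes thrombospondin, and Hps5 (0.95), a gene of lysosome-related organelle biogenesis. For Col5a1 they were Slc2a13 (0.95), a myo-inositol transporter, Spag1 (0.94) and Catsper2 (0.93). For Col1a1 they were Abca8b (0.96), Slc7a7 (0.96) and Tap2 (0.96), and for Col1a2 Cd200 (0.97), Col8a1 (0.97) and Abca8b (0.97). For Col3a1 they were Frmd5 (0.93), Cdh11 (0.92), a cadherin of mesenchymal cells, and Enpp3 (0.87). The lists of Col5a1 and Col5a2 shared no gene, and those of Col1a1 and Col1a2 shared Abca8b.

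Other genes of the fibril pathway were taken from 3 lists of 89 genes in all, of which 71 were tested. Over both days 5 were called higher and 1 lower, against the 2.34% of all genes called above. With the letter as a replicate block 13 were called, 10 of them higher, in a fit that called 9.78% of all genes. The median log2 fold change over the 71 was 0.12, and 50 of the 71 values were positive, against 50.1% of all genes.

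Of 31 tested genes for collagen synthesis and processing, 1 was called. Plod2, a lysyl hydroxylase that prepares collagen crosslinks, averaged 159.5 ± 14.7 CPM in control KD (SD, n = 6) and rose to 190.7 ± 5.76 CPM in YBX3 KD (SD, n = 7), and its log2 fold change was 0.27 (standard error 0.06, edgeR adjusted p = 0.0375). The most abundant tested genes of the list were Sparc, a collagen-binding matricellular protein (log2 fold change -0.05, edgeR adjusted p = 0.895), and P4hb, the common subunit of prolyl hydroxylase (0.05, edgeR adjusted p = 0.834). The median of the list was 0.05.

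Of 23 tested fibril partners, proteins and collagens that bind or decorate fibrils, 3 were called higher and 1 lower, with a list median of 0.29. Thbs1, named above, averaged 2461 ± 232 CPM in control KD (SD, n = 6) and rose to 3901 ± 784 CPM in YBX3 KD (SD, n = 7), and its log2 fold change was 0.67 (standard error 0.11, edgeR adjusted p = 0.00804). Col9a3, a chain of type IX, which sits on the surface of cartilage fibrils, rose from 1.09 ± 0.238 to 2.39 ± 0.316 CPM (log2 fold change 1.14, standard error 0.17, edgeR adjusted p = 0.00449). It had 32 to 166 counts per library, while the type IX genes Col9a1 and Col9a2 had 0 and at most 2 counts. Col24a1, a minor fibril-forming collagen outside the 9, rose from 0.211 ± 0.0727 to 0.488 ± 0.132 CPM on 5 to 36 counts per library (log2 fold change 1.27, standard error 0.25, edgeR adjusted p = 0.02). Fbln1, an extracellular matrix glycoprotein, fell from 63.7 ± 11.7 to 43.9 ± 5.62 CPM (log2 fold change -0.54, standard error 0.12, edgeR adjusted p = 0.0304).

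Of 17 tested collagen receptors and collagenases, 1 was called, with a list median of 0.18. Itgb1, the beta subunit shared by the collagen-binding integrins, rose from 879.7 ± 58.5 to 1070 ± 98.6 CPM (log2 fold change 0.29, standard error 0.07, edgeR adjusted p = 0.0394). Timp2, an inhibitor of metalloproteinases and the most abundant of the list, had a log2 fold change of 0.36 (standard error 0.16, edgeR adjusted p = 0.278).

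When each library was left out in turn, Col9a3 and Thbs1 kept their call in 13 of 13 fits. Col24a1 was called in 7 of the fits, Fbln1 in 5, Plod2 in 4 and Itgb1 in 3. The edgeR adjusted p ran from 0.0109 to 0.0596 for Col24a1, from 0.0254 to 0.0721 for Fbln1, from 0.0153 to 0.108 for Plod2 and from 0.03 to 0.108 for Itgb1. Leaving out replicate A or C of control KD at 0 day cost all 4 genes their call, as did leaving out control KD replicate D at 1 day or YBX3 KD replicate A at 0 day. Without control KD replicate B at 0 day, Col24a1, Fbln1 and Itgb1 lost it, and without control KD replicate C at 1 day, Col24a1, Plod2 and Itgb1 did. Without YBX3 KD replicate B or C at 0 day, or B at 1 day, Fbln1, Plod2 and Itgb1 lost it, and without YBX3 KD replicate C at 1 day, Plod2 and Itgb1 did. Most of these fits also called fewer of all genes than the 2.34% of the main fit. At 0 day it was 1.23% without control KD replicate A, 1.03% without control KD replicate C and 1.06% without YBX3 KD replicate A. It was higher without control KD replicate D at 0 day (5.11%) and YBX3 KD replicate D at 1 day (2.39%). From 0 day to 1 day, 0 of the 71 genes were called by edgeR in control KD or in YBX3 KD, and DESeq2 called 0 in each. At an unadjusted p under 0.05 there were 0 and 4, and the share of all genes at that p is not given here.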

How the data were processed

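The deposited values were estimated counts per gene, whole numbers with no normalization, in a column for each of 13 libraries. The authors had quantified reads by Salmon (GRCm39, Gencode M30). How the estimates were summed by gene and made whole is not given in the sources used here. Groups came from the sample descriptions. Low genes were removed with filterByExpr, given the 4 groups, libraries were TMM scaled, and comparisons used edgeR 4.0.16 (R 4.3.3) quasi-likelihood tests with default settings and Benjamini-Hochberg adjustment over all tested genes. The comparison over both days had knockdown and day as terms, and the others came from a fit with a coefficient per group. A gene was called at an adjusted p under 0.05. CPM per kb used the length of the canonical transcript in GENCODE vM39, joined by Ensembl identifier (54969 of 55642 matched). DESeq2 1.42.0, other scaling, no filter, replicate blocks and leaving out libraries were tried, and the functions were checked on simulated counts. Promoter windows came from RefSeq and siRNA strands from the study's list (biopython 1.88).

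The letters in the descriptions and the numbers in the titles disagree at 1 day. Residuals of log2 CPM correlated above 0.1 in 16 of 16 pairs of libraries of different groups that share a letter (0.207 to 0.843), against 10 of 16 that share a number. The letter was therefore taken as the replicate block in the fits described with a letter block. The main comparisons had no block, so their tests did not use this pairing. No libraries of a group were duplicates (over 16 pairs, chi-square divided by its degrees of freedom was 18.96 to 275.2). Adjusted p-values measure the spread between these cultures of 1 line.

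Named were all 9 members, Ybx3, called genes of the 3 pathway lists, the 2 most abundant tested genes of a list with under 4 of those, and the 3 genes most correlated with each member above 100 CPM. Members and lists were chosen with earlier results of these data known.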

Additional observations from a re-analysis of the deposited data

Results flagged for a closer look

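For Col11a2, control KD replicate D at 0 day stood apart from the other libraries of its group, at 39.1 CPM against 13.4, 14.1 and 15.3 CPM, and its gap to the nearest of them was 0.924 of the range of the group. This exceeds the 95% limit of Dixon's test for 4 libraries. It was 1 of 18 groups of 4 libraries examined over the 9 genes, and chance exceeds that limit in about 1 of 20. YBX3 KD replicate D at 1 day had the highest Col11a2 value of all, 53.5 CPM, while YBX3 KD replicate D at 0 day, at 33.0 CPM, and control KD replicate D at 1 day, at 13.7 CPM, lay with their groups.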

How the results depend on the processing

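Over both days, the count of called fibrillar collagen genes was 2 by edgeR. It was 6 with the letter as a replicate block, 6 for letters A to C alone, 0 by the study's thresholds on edgeR's p-values (2 by DESeq2 with those thresholds), 7 by DESeq2 with the letter block and 5 for letters A to C with the letter block, and 2 to 3 without each library in turn. At 0 day the count of 2 became 3, with Col5a3, by DESeq2, in a fit of the 0 day libraries alone and with the letter block, 4 for letters A to C alone, 0 by the study's thresholds on edgeR's p-values (2 by DESeq2 with them), 5 by DESeq2 with the letter block and 4 for letters A to C with the letter block. At 1 day the count of 0 became 2 by DESeq2 with the letter block, and in the step from 0 day to 1 day in YBX3 KD the count of 0 became 1 by DESeq2, also with the study's thresholds, and 2 by DESeq2 with the letter block. The count of called pathway genes over both days, 6, was 3 without the filter, 13 with the letter block, 15 for letters A to C alone, 0 by the study's thresholds (3 by DESeq2 with them), 20 by DESeq2 with the letter block, 15 for letters A to C with the letter block and 2 to 7 without each library. Over both days the same fits also called more of all tested genes, 2.34% by edgeR, 9.78% with the letter block and 12.5% for letters A to C alone. It was 19.4% by DESeq2 with the letter block and 11.9% for letters A to C with it. At 0 day the shares were 0.427% by edgeR, 2.98% by DESeq2, 0.392% for the 0 day libraries alone and 2.37% with the letter block. They were 5.49% for letters A to C alone, 8.35% by DESeq2 with the letter block and 3.36% for letters A to C with it. At 1 day DESeq2 with the letter block called 16.4%. In the YBX3 KD step DESeq2 called 0.00661%, and 0.132% with the letter block. The count of called pathway genes in that step was 0, and 1 for letters A to C alone and 2 by DESeq2 with the letter block. Fits by DESeq2 with the block or with the study's thresholds, for letters A to C with the block and with edgeR's newer dispersion setting were chosen after seeing the data. The cause of these changes was not tested. Leaving out a library at 1 day in control KD leaves 1 library there, which is then assumed to vary like the other groups.

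Col5a1 and Col5a2 were called over both days and at 0 day in 24 of 25 alternatives, the exception being the study's thresholds when put on edgeR's p-values. Signs turned for these log2 differences, none of them called. Col3a1 at 1 day was 0.0092 for letters A to C (0.0079 with the block), and at 0 day -0.16 to 0.0263 without each library. Col5a3 at 1 day was -0.0334 with the title number as block and -0.30 to 0.44 without each library. In the control KD step, Col5a2 was 0.03 with the letter block (0.0299 by DESeq2), 0.0317 for letters A to C (0.0735 with the block) and -0.098 to 0.0563 without each library, and Col5a3 was -0.27 for letters A to C (-0.20 with the block) and -0.31 to 0.42 without each library. Over both days, Sparc was 0.0231 for letters A to C (0.0295 with the block) and -0.12 to 0.0459 without each library, and P4hb was -0.0466 for letters A to C (-0.0545 with the block) and -0.0089 to 0.0861 without each library.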
